A study of Mus musculus with 8 samples.

Results

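The bone morphogenetic protein (BMP) and growth and differentiation factor (GDF) genes described here are the ligand genes Bmp2, Bmp4, Bmp5, Bmp6, Bmp7, Gdf5 and Gdf10 and the receptor genes Bmpr1a, Bmpr1b and Bmpr2, measured in rib chondrocytes of mouse embryos. They were chosen by name, and every probe set annotated to one of these 10 symbols alone was taken, which gave 23 of the 45101 probe sets of the array, for 10 of its 18193 genes. A probe set is a group of short DNA probes that read the same transcript, and its value is a signal on the linear scale of the MAS5 software. Of the 23, 20 were bright enough to be tested, their mean signal over all 8 arrays lying above the median of all probe sets, which was 106. The other 3 belonged to Bmp7, Bmpr1a and Bmpr2, each of which had brighter probe sets, so all 10 genes were tested.

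BMPs and GDFs are secreted dimers of the TGF-beta superfamily. They bring together type I receptors, among them the products of Bmpr1a and Bmpr1b, and a type II receptor such as that of Bmpr2, which activates the type I receptor to phosphorylate the transcription factors Smad1, Smad5 and Smad9. In cartilage this pathway is needed for mesenchymal cells to become chondrocytes and for the growth plate to be kept, and Gdf5 marks the cells of forming joints.

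The cells were primary chondrocytes of FVB embryos at E18.5, freed from rib cages by collagenase and trypsin. Embryos of 4 litters were sorted by genotype into a control pool, labelled wild type, and a Hoxd4 transgenic pool per litter, so that there were 4 control and 4 transgenic arrays and the same number names the arrays of the same litter. The sample codes end in TA for the controls and in TR for the transgenics, letters that the labels do not spell out, so whether the controls carried an allele of their own is not known here. Neither the number of embryos in a pool nor the promoter driving the transgene is stated in the labels. The comparison asks which transcripts differ when the homeobox transcription factor gene Hoxd4 is overexpressed in these cells.

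Each array's median signal lay between 100.5 and 115. The 10 chondrocyte markers, Col2a1, Acan and Sox9 among them, were all tested, with summed signals of 244200 to 263500 on the control arrays and 253700 to 276000 on the arrays labelled transgenic. The brighter of the 2 probe sets for Hoxd4, which is also assigned to its neighbour Hoxd3, read 27.3, 42.6, 4.10 and 256 in the controls of litters 1, 2, 3 and 4 and 94.1, 415, 172 and 13 in the transgenics, so that litter 4 ran against its labels and each direction below rests on the labels alone. Xist, the RNA of the inactive X chromosome, had signals of 5778, 9945, 13760 and 8098 in the controls and 79.8, 3266, 47.2 and 8209 in the transgenics. Eif2s3y, a Y-linked translation factor gene, had 558 ± 177 (SD, n = 4) and 1054 ± 164 (SD, n = 4). Sex-linked transcripts thus moved with the genotype label over the 8 arrays, beside every value fitted to them, although Xist hardly differed within litter 4. Endothelial markers (7 of 8 tested) summed to 1638 to 2211 in controls and 1253 to 1987 in transgenics. Erythroid markers (3 of 5 on the array tested) summed to 6397 to 13730 and 5349 to 10670. Cell type markers with an unadjusted p under 0.05 in limma were Cdh5 (endothelial, log2 fold change -0.61), Alpl (hypertrophic, -0.31) and Myf5 (skeletal muscle, 0.43), none after adjustment. Their lists had 2 higher and 5 lower, 3 and 3, and 7 and 2. The part of these cells in the differences below was not tested. In pooled tissue RNA, fewer cells of a type and less RNA per cell cannot be told apart.

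No BMP or GDF gene passed the test between the genotype labels. Differences were fitted with limma on log2(signal + 31.5), and p-values were adjusted by the Benjamini-Hochberg method over all 22518 tested probe sets. At an adjusted p under 0.05, 0 of 20 member probe sets were called, against 0 of all tested probe sets (0%). At an unadjusted p under 0.05, 1 of 20 was reached, that of Bmp2, against 740 of all tested (3.29%), a share near that background. With the litter as a block these were 2 of 20, Bmp2 and Gdf5, against 1248 (5.54%), and again 0 passed after adjustment. Without litter 4, whose Hoxd4 signal ran against its labels, the blocked fit gave 1 of 20, Gdf5 in place of Bmp2, against 972 (4.32%). The control and transgenic arrays overlapped in signal for all 20, where 2.27% of all tested probe sets did not overlap. Taking the brightest probe set of each gene, 6 genes were higher and 4 lower in the arrays labelled transgenic, with a median log2 fold change of 0.06. Over all 20 probe sets the median was -0.02, with 9 higher, against 0.0029 over all tested probe sets, of which 51.2% were higher.

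**Figure D1:**
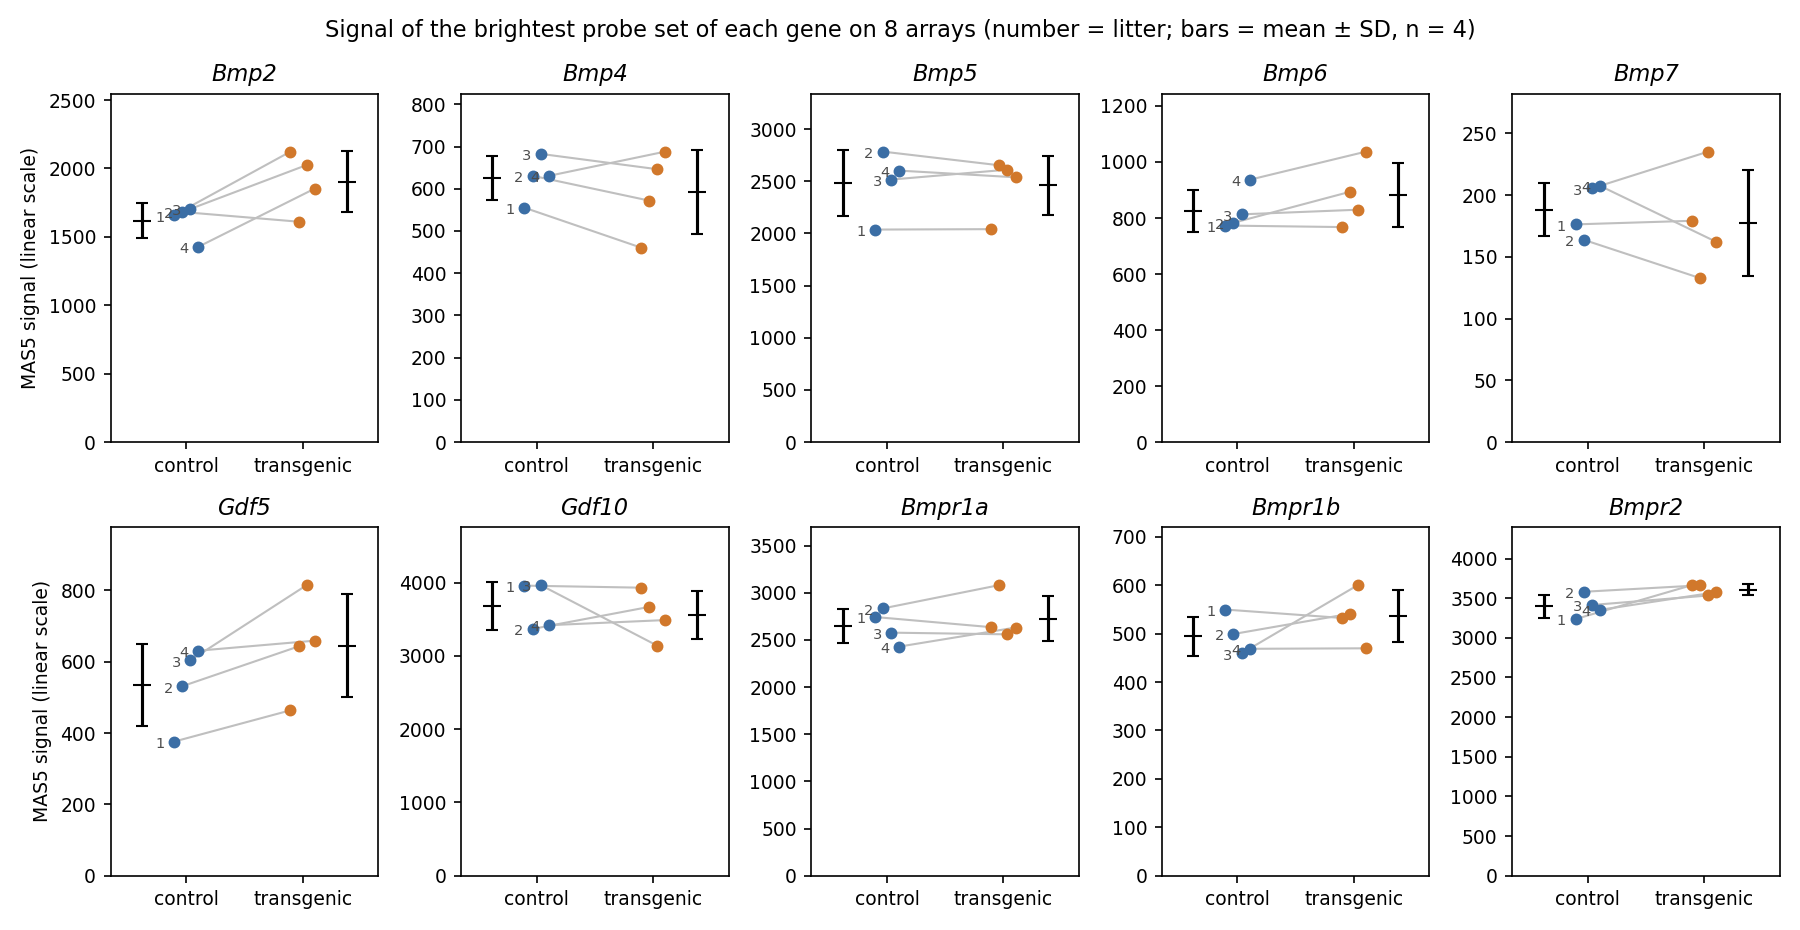
MAS5 signal (linear axis from 0) of the brightest probe set of each of the 10 genes in the 4 control and 4 transgenic arrays as labelled, with lines joining arrays of the same litter and bars for the mean ± SD. The groups overlap in every panel, Bmp2 is higher in the transgenic array of 3 litters, and both Gdf5 arrays of litter 1 lie below the other arrays of their group.

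Among the ligands, Bmp2, which drives chondrocyte maturation and bone formation, had the smallest p over all 8 arrays. It lost that rank to Gdf5 in the blocked fit without litter 4 or litter 1. The same held in the unblocked fit without the control array of litter 4 or the transgenic array of litter 1. With Xist signal in the model the rank went to Bmp6. The Bmp2 signals were 1658, 1682, 1704 and 1428 in the controls of litters 1, 2, 3 and 4 and 2123, 1611, 2025 and 1853 in the transgenics. The transgenic array was the higher of the pair in litters 1, 3 and 4, and in litter 2 it lay below 3 of the control arrays. The means were 1618 ± 128 (SD, n = 4) and 1903 ± 224 (SD, n = 4), a ratio of 1.18. The log2 fold change was 0.23 (95% interval 0.02 to 0.43) with a limma adjusted p of 1.00, or 0.839 with the litter as a block. The exact two-sided permutation p over all 70 assignments of the labels was 0.114, where the smallest possible is 0.0286. Litter 4 held the largest difference of the 4, at 0.37 on the log2 scale, and without that litter the blocked fit gave 0.18. With Xist signal added to the model as a covariate the value was 0.09, and without the transgenic array of litter 2 it was 0.30.

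Bmp4, a ligand made in many embryonic tissues, the perichondrium among them, ran slightly the opposite way. Its signals were 555, 631, 682.5 and 630.5 in the controls and 461, 572, 646 and 688 in the transgenics. The transgenic array was the lower of the pair in litters 1, 2 and 3 and the higher in litter 4. The fitted log2 fold change was -0.09 (95% interval -0.35 to 0.18). Without the transgenic array of litter 1 the value was 0.02, whereas without both arrays of that litter the blocked fit gave -0.03. With Xist signal in the model the value was 0.05.

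Bmp5, Bmp6 and Bmp7 form a subfamily of closely related ligands, of which Bmp5 is known for its role in shaping ribs and ears. The brightest Bmp5 probe set read 2037, 2784, 2516 and 2602 in the controls and 2041, 2653, 2611 and 2538 in the transgenics. The arrays of each litter nearly coincided, differing by 0.0029, -0.07, 0.05 and -0.04 on the log2 scale in litters 1 to 4, while both arrays of litter 1 were the lowest of the 8. The fitted log2 fold change was -0.01 (95% interval -0.24 to 0.22). Its dimmer probe sets gave 0.06 and 0.05, and scaling all arrays to the same median turned the first to 0.03, so no direction can be read for this gene.

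Bmp6, a ligand made by chondrocytes as they mature, had signals of 773, 783, 813 and 936.5 in the controls and 768, 893, 829.6 and 1037 in the transgenics. Litter 4 held the highest array of each group, and the groups overlapped throughout. This gave a log2 fold change of 0.09 (95% interval -0.14 to 0.31), higher in 3 of 4 litters. The size moved with single arrays of litter 4: without its transgenic array the value was 0.0078, and without its control array it was 0.145. Without both arrays of litter 4 the blocked fit gave 0.07. With Xist signal in the model the value was 0.26.

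Bmp7 was dim on these arrays. Its brightest probe set read 176, 164, 205 and 207.5 in the controls and 179, 133, 235 and 162 in the transgenics, and the next 171.5, 194, 126 and 121 against 163, 144.5, 122 and 166. The probe sets of this gene did not rank the arrays alike: litter 3 was the brightest litter in the first and the dimmest in the second. Their log2 fold changes were -0.09 (95% interval -0.46 to 0.28) and -0.02 (95% interval -0.41 to 0.36). The probe set that was too dim to be tested, of the kind made to match several transcripts of a gene, ranged from 63.9 to 89.0 in the controls and from 9.81 to 89.1 in the transgenics.

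Gdf5, the ligand of the joint-forming zone, had the largest fitted difference of the 10 genes and the widest spread between arrays. Its signals were 376, 531, 604 and 631 in the controls and 464, 643, 815 and 659 in the transgenics. The transgenic array was the higher in all 4 litters, yet the transgenic array of litter 1 lay below 3 of the controls. The means were 536 ± 114 (SD, n = 4) and 645 ± 144 (SD, n = 4), a ratio of 1.20. The log2 fold change was 0.25 (95% interval -0.12 to 0.63) with a limma adjusted p of 1.00, or 0.839 with the litter as a block. The blocked fit narrowed the 95% interval to 0.05 to 0.46. Swapping labels within litters alone gave 0.125 as the exact permutation p, which 4 litters cannot go below, and 6.83% of all tested probe sets were also higher in all 4. Without the control array of litter 1 the value was 0.10, without the transgenic array of litter 3 it was 0.14, and without that of litter 1 it was 0.40. Without both arrays of litter 1 the blocked fit gave 0.245, and without both arrays of litter 4 it gave 0.32. The tendon and joint markers (5 of 6 tested) summed to 9553 to 15340 in controls and 9903 to 14570 in transgenics, overlapping ranges. Of these sums Tnmd alone made 7747 to 12470 and 7816 to 12110, so they say little of the other markers.

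Gdf10, a divergent member of the family close to Bmp3, had signals of 3958, 3367, 3965 and 3418 in the controls and 3930, 3667, 3140 and 3488 in the transgenics. The transgenic array of litter 3 was the lowest of the 8, and the other litters differed by 0.12 or less on the log2 scale. Its log2 fold change was -0.05 (95% interval -0.23 to 0.13), and without that array it was 0.0095.

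**Figure D2:**
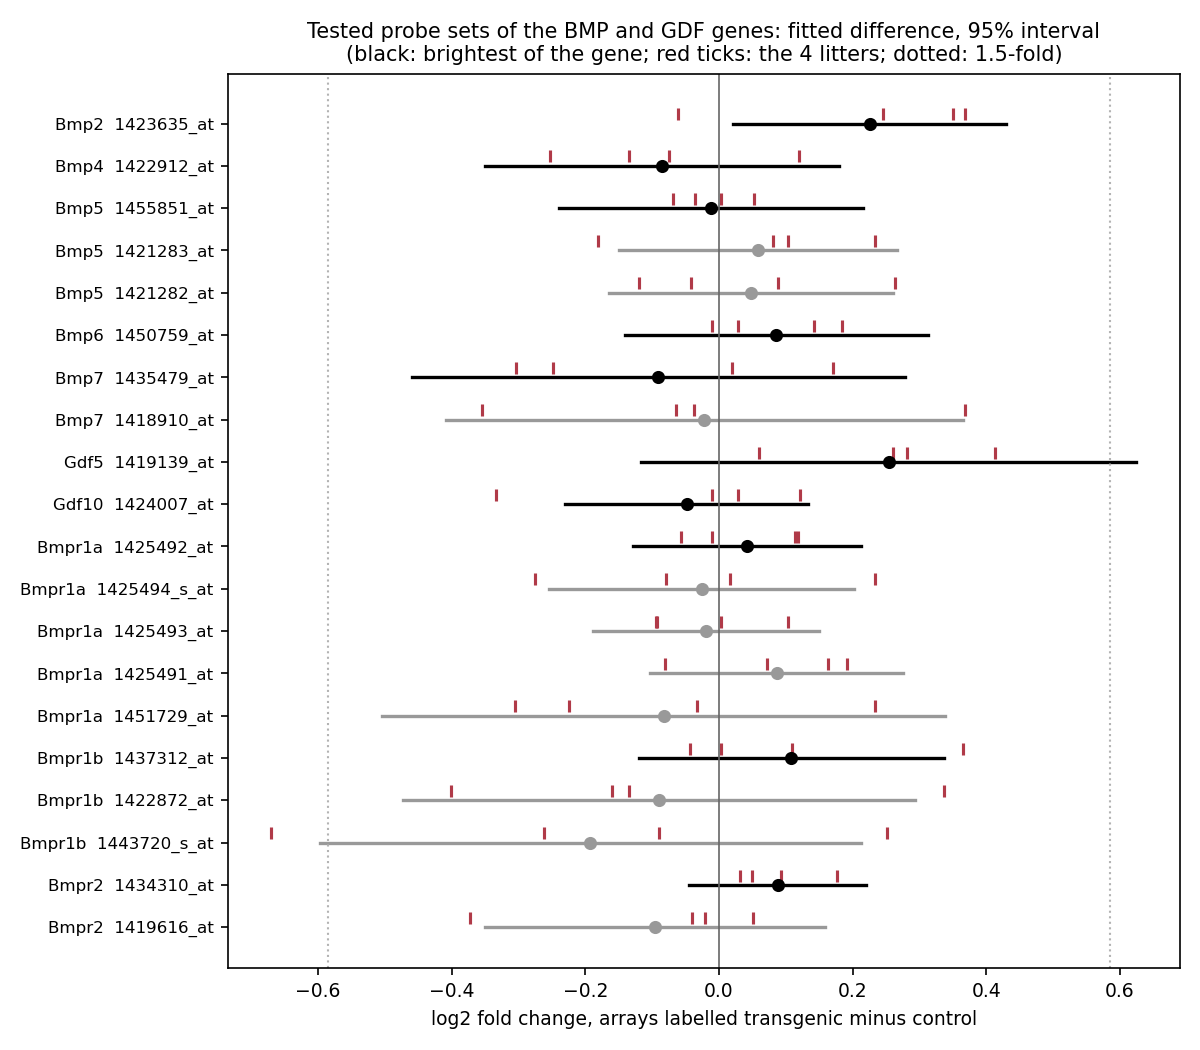
Fitted log2 fold change, arrays labelled transgenic minus control, with its 95% interval for the 20 tested probe sets (black for the brightest of each gene, grey for the others), red ticks for the 4 litters and dotted lines at 1.5-fold. The fit has no block for litter. In it the interval of Bmp2 alone leaves 0 out, and those of Gdf5 and of the Bmpr1b probe set 1443720_s_at alone pass 1.5-fold. With the litter as a block, the Gdf5 interval (0.05 to 0.46, not drawn) also leaves 0 out and stays within 1.5-fold.

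Of the receptors, Bmpr1a, the type I receptor needed in most cartilage elements, was read by 5 tested probe sets. Its brightest had signals of 2743, 2834, 2577 and 2429 in the controls and 2635, 3081, 2559 and 2631 in the transgenics. The transgenic array of litter 2 was the highest of the 8 and the control of litter 4 the lowest. The fitted difference was 0.04 on the log2 scale (95% interval -0.13 to 0.21), and over the 5 probe sets values ran from -0.08 to 0.09, with 2 higher and 3 lower. One of them, 1425494_s_at, is of the kind that can bind more than 1 transcript and gave -0.03. The sixth, 1445413_at, was near background, at 6.72 to 43.8 in the controls and 3.12 to 8.90 in the transgenics, and was not tested.

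Bmpr1b, the type I receptor of early cartilage condensations and the preferred receptor of Gdf5, was read by 3 tested probe sets that disagreed in sign. The brightest had signals of 550, 499, 459 and 469 in the controls and 533, 541, 600.4 and 470 in the transgenics. The transgenic array was the higher by 0.11 and 0.365 on the log2 scale in litters 2 and 3, while litters 1 and 4 differed by -0.04 and 0.0031. Its log2 fold change was 0.11 (95% interval -0.12 to 0.34), whereas the dimmer probe sets gave -0.09 and -0.19. The disagreement was widest in litter 3, where 1443720_s_at differed by -0.67, and averaging the probe sets of the gene gave -0.06.

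Bmpr2, the type II receptor gene, had the tightest values among the brightest probe sets of the 10 genes. Its brightest probe set read 3237, 3581, 3414 and 3353 in the controls and 3665, 3662, 3534 and 3576 in the transgenics. The transgenic array was the higher in all 4 litters, by 0.18, 0.03, 0.05 and 0.09 on the log2 scale, and the groups overlapped only through the control of litter 2. The means were 3396 ± 143 (SD, n = 4) and 3609 ± 64.9 (SD, n = 4), a ratio of 1.06. Over all 8 arrays the fit put the difference at 0.09 on the log2 scale (95% interval -0.04 to 0.22), with a limma adjusted p of 1.00; permuting the labels over all assignments gave an exact p of 0.0857. Its other tested one, with signals of 253 to 337, gave -0.10 (95% interval -0.35 to 0.16), and the untested one ranged from 25.5 to 160.7 over the 8 arrays.

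In the fit with no block, the arrays bounded these differences about as closely as those of all tested probe sets. The median half-width of the 95% interval was 0.227 on the log2 scale, against 0.273 over all tested. The interval lay within a 1.5-fold change for 18 of 20, where 85.4% of all tested probe sets did so. It lay within 2-fold for all 20, where 98.7% did, shares near that background. The median spread left by the fit was 0.15 on the log2 scale, against 0.175 over all tested probe sets. The SD over all 8 arrays ran from 0.06 for the brightest probe set of Bmpr2 to 0.32 for Gdf5. Each interval is that of a single probe set, not of the family.

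Differences between litters were asked of the same arrays with a moderated F-test in limma, with genotype as a covariate. In litters 1, 2, 3 and 4 the mean Gdf5 signal was 420, 587, 709.5 and 645, and that of Bmp5 was 2039, 2719, 2564 and 2570. Litter 1 was the lowest for both genes in both of its arrays. It was also the lowest for Bmp4, at 508 against 601 to 664, and for Bmp6, at 770 against 821 to 987. Bmpr2 was lowest there by little, at 3451 against 3464 to 3622. Bmp2, Gdf10 and Bmpr1b did not share this: their highest litter mean was that of litter 1, at 1890, 3944 and 541. Litter 1 also had the lowest array medians, 103.2 for the control and 100.5 for the transgenic, against 107.4 to 115.1 in the other litters. The share of all tested probe sets that were lowest in litter 1 was not counted. None of the 20 probe sets passed an adjusted p of 0.05 (adjusted p = 0.0897 for Gdf5 and 0.101 for Bmp5), against 109 of all tested (0.484%). That background count moved with the processing, being 884 with median scaling, 30 without the filter on dim probe sets and 0 with eBayes without a trend, and 10, 286 and 70 without litters 1, 3 and 4, whereas the members' count was 0 in each. At an unadjusted p under 0.05, 2 of 20 were reached, those of Gdf5 and Bmp5, against 14.6% of all tested, a share not above that background. Summed markers were also lowest in litter 1 for 7 of 12 cell type lists. The tendon and joint markers were at 9728 against 11680 to 14870, the perichondrium and fibroblast markers (9 of 9 tested) at 150600 against 158300 to 168900 and the osteoblast markers at 20600 against 24410 to 29360. Of that osteoblast sum Col1a1 alone made 19930. Dmp1 was also lowest in litter 1, but Sp7, at 460 against 420 to 494, and Ifitm5, at 119 against 104 to 126, were not. Of the tendon and joint sum in litter 1, Tnmd alone made 7781. Kera, Erg and, by little, Mkx were also lowest in litter 1, but Prg4, at 725.5 against 677 in litter 4, was not. The summed skeletal muscle, endothelial, erythroid and osteoclast markers were lowest in litter 1 too, while the chondrocyte markers were at 258600 against 256700 to 260500. The part of these cells in the litter values was not tested.

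**Figure D3:**
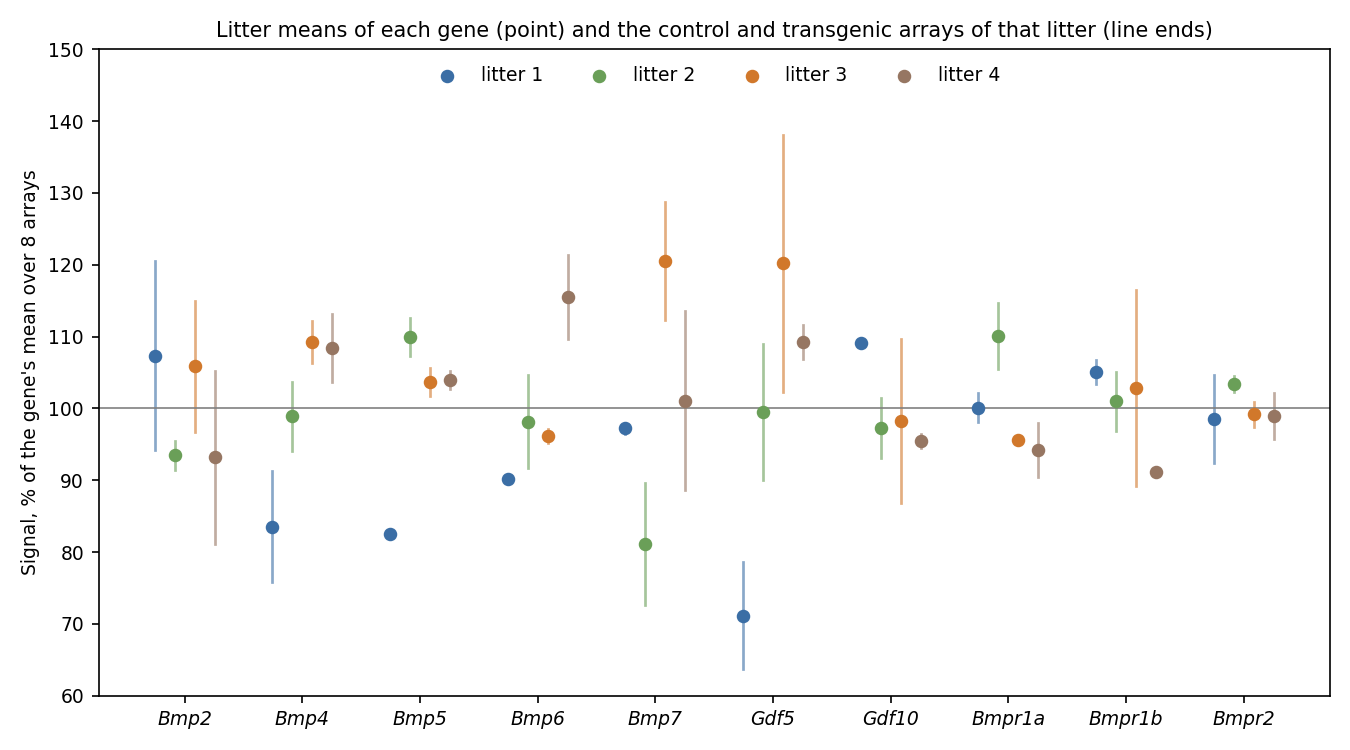
Signal of each gene's brightest probe set in each litter as a percentage of that gene's mean over the 8 arrays; points are litter means and line ends the control and transgenic arrays. Gdf5, Bmp5, Bmp4, Bmp6 and, by little, Bmpr2 are lowest in litter 1, whereas Bmp2, Gdf10 and Bmpr1b are highest there. The axis starts at 60%.

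The rest of the pathway was followed through 65 further genes of the array, of which 51 could be tested by their brightest probe set. None passed an adjusted p of 0.05 in limma, and 2 had an unadjusted p under 0.05, both higher (1.58% of all tested probe sets were). With the litter as a block 4 were under 0.05, all higher (2.7% of all tested probe sets were), and again 0 passed after adjustment. In all 36 were higher and 15 lower, with a median of 0.05 against 0.0029 over all tested probe sets, and 27 were higher and 24 lower without the control array of litter 1; the list holds genes that had been reported as higher from these same arrays, so the count is no independent evidence of a direction. The 8 tested genes for Smads and their ubiquitin ligases gave 7 higher and 1 lower, by a median of 0.07, with Smad1, a direct substrate of the type I receptors, at 0.15 (95% interval -0.05 to 0.35) and Smad6, an inhibitory Smad, at 0.15. The other receptors and co-receptors gave 10 higher and 1 lower of 11, by a median of 0.07, with Acvrl1, a type I receptor best known from blood vessels, at 0.28 (95% interval -0.04 to 0.60).

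The transcriptional targets of BMP signalling gave 6 higher and 2 lower of 8, by a median of 0.10. Id4, Id3 and Id2, helix-loop-helix inhibitors that BMP signals induce, were at 0.19 (95% interval 0.0037 to 0.37), 0.12 and 0.15. The 13 secreted or membrane antagonists split into 8 higher and 5 lower (median 0.03), with Bambi, a decoy receptor, at 0.15 (95% interval 0.00076 to 0.31) and Noggin (Nog), which binds the ligands, at 0.20. Bambi and Id4 were the 2 genes with an unadjusted p under 0.05 in limma. With the litter as a block these were Id4, Id3, Bambi and Id2 (unadjusted p = 0.00965, 0.0289, 0.0339 and 0.0449). Without the control array of litter 2 or 4, or the transgenic array of litter 2, the unblocked fit left 0 of the 51 pathway genes under 0.05. It left 1 to 3 without any other single array. With the block the count was 1 without litter 2, 4 without litter 1 or 4, and 7 without litter 3. Id4 and Id3 were higher in 4 of 4 litters, and Bambi and Id2 in 3 of 4. Genes that cleave proproteins or free the ligands gave 4 higher and 2 lower of 6, with the metalloproteinase gene Bmp1 at 0.19 and Furin, the convertase that cuts BMP precursors, at 0.12. Only 5 of 13 other ligand genes on the array were bright enough, with 1 higher and 4 lower, the largest difference being that of Inhbb, an inhibin and activin subunit, at -0.48 (95% interval -1.29 to 0.33). That value rested on the transgenic array of litter 1, with a signal of 27.4 against 177 to 241 on the other 7 arrays, and without it the log2 fold change was 0.03 (95% interval -0.33 to 0.40).

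**Figure D4:**
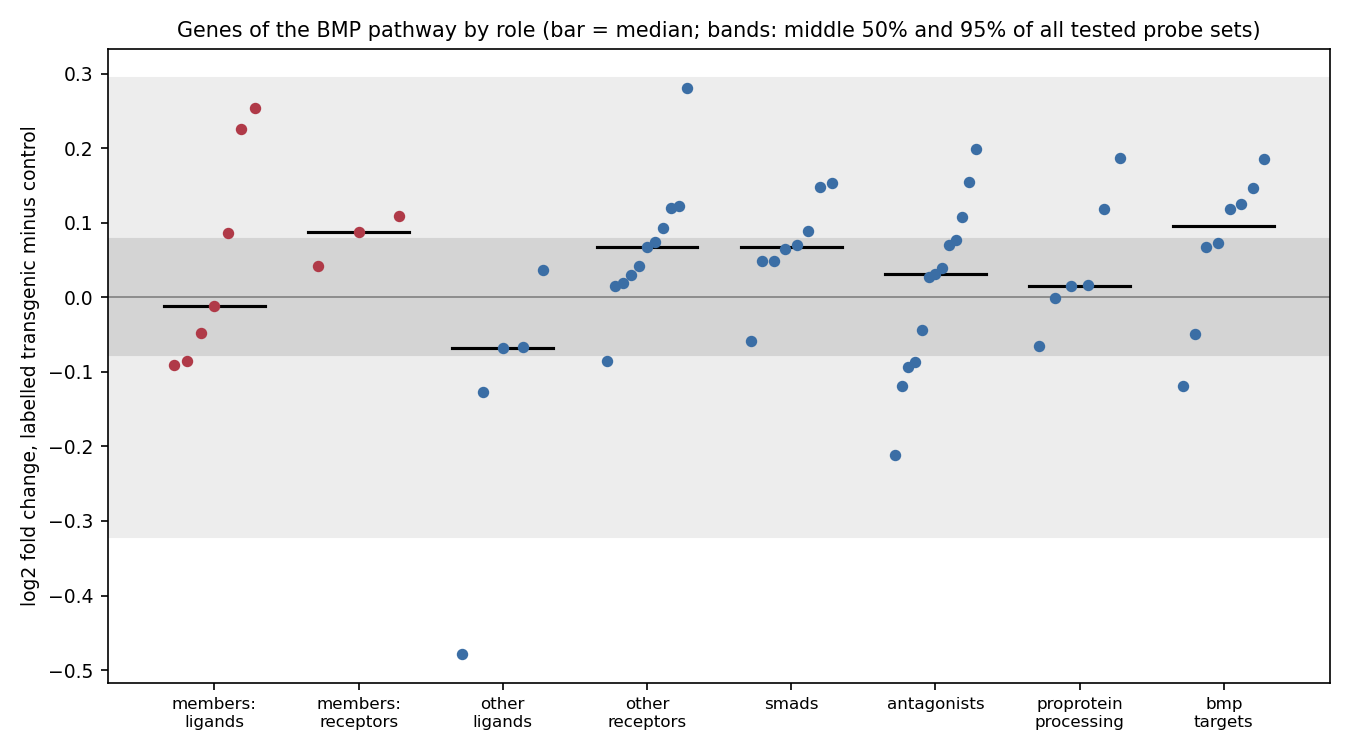
Fitted log2 fold change (arrays labelled transgenic minus control) of the 10 genes in red and of the other tested pathway genes in blue, by role, with bars at the medians and bands for the middle 50% and 95% of all tested probe sets. Every gene except Inhbb lies inside the wider band, which runs from -0.32 to 0.29, and Inhbb is at 0.03 without the transgenic array of litter 1.

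The genes whose log2 values followed those of a member most closely over the 8 arrays were sought for the 4 members with the smallest p. Gm32031 and Anp32a followed Bmp2 with Pearson correlations of 0.962 and 0.957. Entpd7 and Maml1 followed Gdf5 at 0.984 and 0.974, Lpgat1 and Myo5a followed Bmpr2 at 0.978 and 0.965, and Arhgap39 and Sec63 followed Bmpr1b at 0.948 and 0.943. These are the highest of all tested probe sets of 1 symbol over only 8 arrays that share litters and genotype labels, and they are a description of these arrays.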

How the data were processed

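Total RNA of 8 rib chondrocyte pools was read on Affymetrix arrays, 1 biotin-labelled pool per array. The authors deposited linear MAS5 signals, that is 1 intensity per probe set, per the submitters' processing notes; the MAS5 version and detection calls are not stated in the labels. In the values, each array's mean without the top and bottom 2% was 500.

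After 64 control probe sets were left out, 45037 were turned to log2(signal + 31.5), the constant being the typical 25th percentile of an array; it shrinks differences between dim signals. Tests used limma 3.58.1 (lmFit, eBayes with a trend; R 4.3.3) with no block; probe sets needed a mean signal above 106. The limma fits were checked on simulated data. Figures used matplotlib 3.10.9.

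Names came from GEO's platform annotation, checked by gene identifier against RefSeq (10 of 10 members matched). Of the probe sets 34945 had 1 symbol, 932 several and 9160 were unnamed here. All probe sets of a member are given; of each pathway list, up to 3 genes with the smallest p are named; genes most like a member were the 2 with the highest correlation. Members and lists were chosen with earlier results of these data known.

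The replicate number is the litter, per the labels, so arrays are paired by it: deviations from the group means correlated at 0.28, 0.17, 0.041 and 0.14 within litters 1 to 4, against a mean of -0.052 between litters. The p-values measure the spread between these pools. Alternatives were a fixed or random block for litter, the constant, the filter, scaling between arrays, eBayes without a trend, probe set kinds, Xist as a covariate, averaging the probe sets of a gene, and leaving out arrays or litters.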

Additional observations from a re-analysis of the deposited data

Results flagged for a closer look

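Single arrays stood apart from the other 3 of their group for 4 of the 20 tested probe sets, in 4 of 40 groups checked, where chance marks about 1 in 20. The control array of litter 4 was low for Bmp2, at 1428 against 1658 to 1704, and without it the log2 fold change of Bmp2 was 0.17. The transgenic array of litter 2 was high for the brightest Bmpr1a probe set, at 3081 against 2559 to 2635, and without it the log2 fold change was -0.02. The transgenic array of litter 3 was high for the Bmpr1b probe set 1422872_at, at 199 against 122 to 130.2, and low for the dimmer Bmpr2 probe set 1419616_at, at 253 against 288 to 293.5.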

How the results depend on the processing

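No member probe set, and none of the pathway genes, was called under any of the 23 alternatives run on them, nor did a member probe set pass the test between litters in 12. Over all tested probe sets, 1 was called with Xist as a covariate, and 0 to 4 without single arrays or litters (1 without transgenic array 4, and 4 with the replicate block without litter 4). With the replicate block the adjusted p of Bmp2 was 0.839. The median over member probe sets, -0.016 as reported, was 0.0532 with the stricter filter, 0.0243 with median scaling and 0.0351 with the Xist covariate, and ran from -0.0153 to 0.0536 without single arrays or litters.

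Signs turned in 16 of 239 values for single genes, none called. Median scaling put Bmp5 at 0.0298. The Xist covariate put Bmp4, Bmp5 and Bmpr1b at 0.0527, 0.096 and -0.0176. Averaging all probe sets of a gene put Bmp5, Bmpr1a and Bmpr1b at 0.0314, -0.0879 and -0.058. That average took in probe sets too dim to be tested, for Bmpr1a the near-background 1445413_at, at -0.53. With the replicate block, Bmp5 was at 0.00669 without litter 2 and Gdf10 at 0.0469 without litter 3. Leaving out arrays or litters gave Bmp4 from -0.159 to 0.023, Bmp5 from -0.103 to 0.074, Bmp7 from -0.216 to 0.0172, Gdf10 from -0.0976 to 0.00948 without arrays and from -0.105 to 0.0469 without litters, and Bmpr1a from -0.0179 to 0.0751. The cause was not tested. The stricter filter left no Bmp7 probe set. The 4 arrays per group limit the precision.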
